A study of Homo sapiens with 6 samples.

Results

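The insulin-like growth factor (IGF) system was examined through 10 genes chosen by name from the 18056 genes of the deposited table: the ligand IGF2, the receptors IGF1R, IGF2R and INSR, and the binding-protein genes IGFBP2, IGFBP3, IGFBP4, IGFBP5, IGFBP7 and IGFBPL1. All 10 were found by symbol, and all 10 were among the 13842 genes with enough counts to test. RNA came from forebrain organoids of DYR0100, an induced pluripotent stem cell line labelled wild type, grown by a dorsal forebrain protocol. The control group was 3 libraries of organoids given vehicle, and the exposed group was 3 libraries of organoids given 5 µM Aβ42, the aggregation-prone amyloid-β peptide, with an exposure of 6 days. All 6 libraries carry the same batch label and the design text calls the replicates biological, but the sources used here do not give the vehicle's composition, the organoids' age or how many organoids entered a library, and all come from 1 line. Aβ42 replicate 2 stood apart from its group: its counts differed less from the 3 vehicle libraries (chi-square per gene 3.16, 7.71 and 4.58) than from Aβ42 replicates 1 and 3 (9.41 and 8.49), and its quality weight in limma was 0.395, against 1 to 1.63 in the others.

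IGF2 and its relative IGF1 are secreted growth factors that drive proliferation and survival of neural progenitors. They signal through the tyrosine kinase receptor IGF1R and, for IGF2 in particular, through INSR, the insulin receptor, while IGF2R has no kinase and carries IGF2 to lysosomes for degradation. IGF-binding proteins are secreted proteins that hold the ligands away from, or deliver them to, these receptors. IGFBP7 and IGFBPL1 are related proteins that share the cysteine-rich amino-terminal domain of the family, and IGFBP7 binds IGFs only weakly.

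That shared domain is visible in the coding sequence. Each of the 6 binding-protein genes held 1 match to the family's cysteine-rich signature in the principal GENCODE 29 transcript (GRCh38), a window of 8 codons and 24 bases. The windows are shown because they are the part that unites the classical members with IGFBP7 and IGFBPL1. Of the members, IGFBP7 and IGFBPL1 had the lowest log2 fold changes (Aβ42 over vehicle) below. Capitals mark cysteine codons.
IGFBP2: ggcTGCggcTGCTGCtcggtgTGC
IGFBP3: ggcTGCggcTGCTGCctgacgTGC
IGFBP4: ggcTGCggcTGTTGCgccactTGC
IGFBP5: ggcTGCggcTGCTGCatgaccTGC
IGFBP7: gcgTGCggcTGCTGCcctatgTGC
IGFBPL1: gagTGCggcTGCTGCgcccgcTGC
The 4 cysteine codons stand at the same places in all 6 windows because the search pattern required them there, so this is no separate result. The opening codon was ggc in IGFBP2, IGFBP3, IGFBP4 and IGFBP5, gcg in IGFBP7 and gag in IGFBPL1. IGFBP3 and IGFBP5 were identical at 22 of 24 bases, and IGFBP3 and IGFBPL1 at 16. Part of that identity was also set by the pattern. The window opens at codon 83 of 325 in IGFBP2 and at codon 62 of 278 in IGFBPL1.

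By the deposited TPM (transcript abundance scaled to library size and divided by length, so that genes can be compared), binding-protein transcripts far outnumbered those of the ligand. IGFBP2, a binding protein of progenitors and glia, was at 344.0 ± 47.0 TPM (mean ± SD, n = 6 libraries), above 98.1% of listed genes. IGFBPL1, a binding-protein-like gene of the developing forebrain, followed at 239.0 ± 36.4 TPM, above 96.8% of listed genes. IGFBP5 (52.6 ± 7.22 TPM), IGFBP7 (41.6 ± 17 TPM) and IGFBP4 (30.1 ± 1.67 TPM) were at middle levels. IGFBP3 was at 7.25 ± 1.05 TPM. The 6 libraries of IGFBP2 and IGFBPL1 overlapped in range, as did each pair of neighbours from IGFBP5 down through IGFBP7, IGF2R and IGF1R to IGFBP4. Gaps without overlap separated IGFBPL1 from IGFBP5, IGFBP4 from INSR, INSR from IGFBP3 and IGFBP3 from IGF2.

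**Figure D1:**
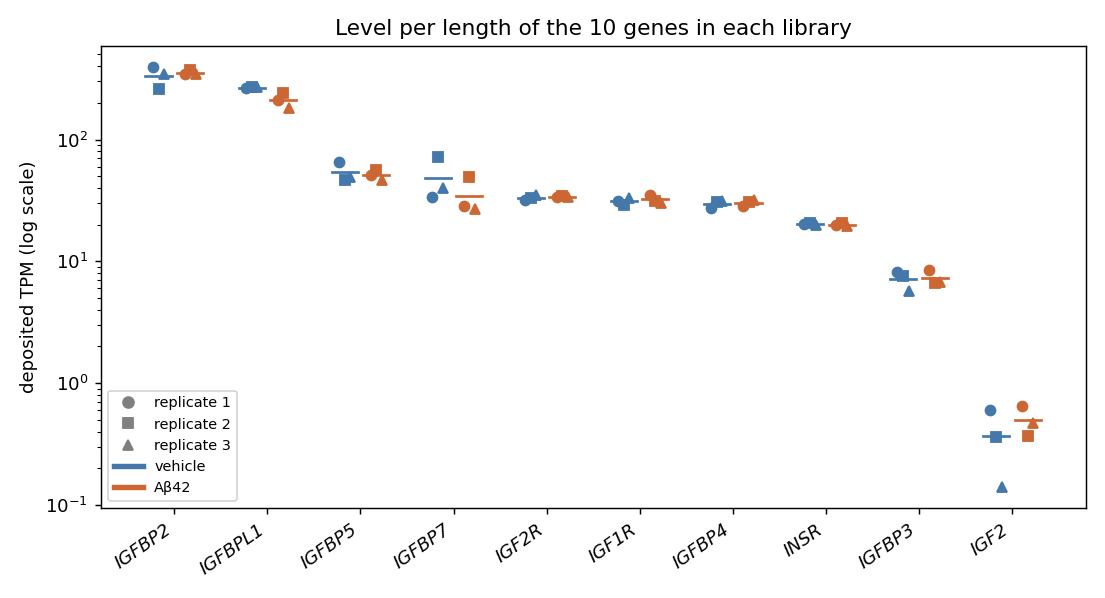
Deposited TPM on a log axis for each of the 10 genes, ordered by mean level, with 1 point per library (marker shape gives the replicate number, colour the group) and a bar at each group mean. IGFBP2 and IGFBPL1 lie far above the others, and IGF2 lies below 1 TPM in every library.

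The ligand was close to the limit of detection. IGF2 had 18, 10 and 4 counts in vehicle replicates 1 to 3 and 19, 11 and 15 counts in Aβ42 replicates 1 to 3, or 0.14 to 0.65 TPM. The lowest value was vehicle replicate 3, and the groups overlapped. Its log2 fold change (Aβ42 over vehicle) was 0.48 ± 0.46 (SE), with a 95% interval of -0.54 to 1.49 and a Benjamini-Hochberg adjusted p-value of 0.546 by the quasi-likelihood test of edgeR, so neither a fall nor a rise of that size was detectable at this depth. Leaving out 1 library moved it between 0.09 (without vehicle replicate 3) and 1.07 (without vehicle replicate 1). The annotation places INS-IGF2 on the same strand and IGF2-AS on the opposite strand over IGF2 (chr11:2129117-2149566), and how the counting divided such reads is not given in the sources used here. The other ligand, IGF1, which is no member, was also low, at 1.81, 2.15 and 0.61 TPM in vehicle and 0.52, 1.43 and 0.63 TPM with Aβ42, and its groups overlapped.

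The receptors were steady. Over all 6 libraries IGF2R (chr6:159969082-160111504) was at 33.6 ± 1.08 TPM, IGF1R (chr15:98648539-98964530) at 31.7 ± 2.15 TPM and INSR (chr19:7112265-7294414) at 20.1 ± 0.513 TPM, a spread of 3.21%, 6.78% and 2.55% of the mean. The TPM ratio of IGF1R to INSR was 1.54 ± 0.115 in the vehicle group and 1.61 ± 0.140 in the exposed group (SD, n = 3 each), and that of IGF2R to IGF1R was 1.07 ± 0.0557 and 1.06 ± 0.0850. Between-group comparisons used TMM-normalised CPM (counts scaled to library size, not divided by length). IGF1R was at 151.0, 141.0 and 158.0 CPM in vehicle replicates 1 to 3 and at 165.0, 151.0 and 149.0 CPM with Aβ42. IGF2R was at 183.0, 187.0 and 198.0 CPM in vehicle and at 197.0, 199.0 and 200 CPM with Aβ42. INSR was at 77.1, 76.3 and 74.5 CPM and at 76.7, 79.8 and 76.7 CPM. The groups overlapped in all 3 receptors, for IGF2R only through vehicle replicate 3. The log2 fold changes were 0.05 ± 0.06 for IGF1R, 0.07 ± 0.05 for IGF2R and 0.03 ± 0.05 for INSR, with adjusted p-values of 0.608, 0.379 and 0.71. The 95% intervals were tight and put any change between -5.21% and 13.4% for IGF1R, -2.26% and 12.8% for IGF2R, and -5.09% and 10.2% for INSR.

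**Figure D2:**
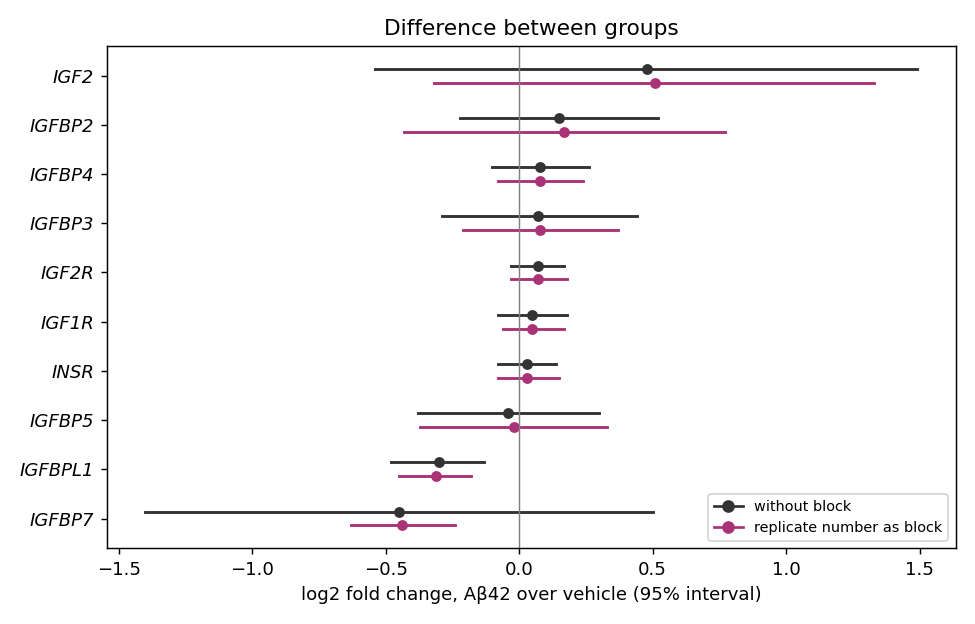
Log2 fold change of Aβ42 over vehicle with its 95% interval for each gene, in the fit without a block (dark) and with the replicate number as a block (purple). The intervals of IGFBPL1 lie below 0 in both fits, that of IGFBP7 does so only with the block (-0.63 to -0.24), and those of the 3 receptors are narrow and span 0.

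IGFBPL1 (chr9:38406528-38424454, Entrez gene ID 347252) was lower in every library given Aβ42. It stood at 357.0, 356.0 and 362.0 CPM in vehicle replicates 1 to 3 and at 288.0, 327.0 and 255.0 CPM in Aβ42 replicates 1 to 3. The vehicle libraries were nearly equal (358.1 ± 3.04, SD, n = 3), the Aβ42 libraries were spread (290.0 ± 35.8), and the groups did not overlap. Its log2 fold change was -0.30 ± 0.08, a change of -19.0% (95% interval -28.1% to -8.77%), with an unadjusted p-value of 0.00281 and one of 0.0799 after adjustment (quasi-likelihood test of edgeR), short of the threshold of 0.05. With the replicate number as a block, edgeR's adjusted p-value was 0.00543, at a log2 fold change of -0.31 ± 0.06. The labels do not say that equal numbers are pairs, and the block was chosen from these same data, which limits all blocked values here. DESeq2 gave an adjusted p-value of 0.00414. Aβ42 replicate 2 was nearest to vehicle, and without it the log2 fold change was -0.40 and the adjusted p-value 0.00049 by edgeR, a fit in which 23.3% of all genes passed (11.6% higher and 11.7% lower). Without Aβ42 replicate 3 the log2 fold change was -0.22 and the adjusted p-value 0.296. The blocked call was lost without the libraries numbered 1 (0.128) or 3 (0.0777).

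IGFBPL1 was the 1 gene of the 10 whose groups did not overlap, against 27% of all genes tested (13.4% lower), so that count is no more than the background. No member passed edgeR's test without the block: 0 of 10 at an adjusted p-value under 0.05, against 0% of the 13842 genes, with 1 of 10 at an unadjusted p-value under 0.05, against 23.9%. With the block 2 of 10 passed, IGFBPL1 and IGFBP7, both lower, against 14.2% of all genes (7.12% higher and 7.05% lower). DESeq2 called 1 of 10, IGFBPL1, against 6.3% of the genes it gave an adjusted value (3.01% higher and 3.29% lower). With the block and without the libraries numbered 1 or 3, 0 members passed by edgeR (3 and 2 unadjusted), while without those numbered 2 both did. The median log2 fold change of the 10 genes was 0.06, against 0.0032 over all genes tested.

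The 250 bases upstream of the annotated start of IGFBPL1 are shown because this gene had the smallest p-value of the 10. The window is chr9:38424455-38424704 on the minus strand (RefSeq, GRCh38.p14), written from the far end to the base before the start, with capitals for CCAAT (searched also as ATTGG) and GGGCGG (also as CCGCCC).
IGFBPL1 upstream: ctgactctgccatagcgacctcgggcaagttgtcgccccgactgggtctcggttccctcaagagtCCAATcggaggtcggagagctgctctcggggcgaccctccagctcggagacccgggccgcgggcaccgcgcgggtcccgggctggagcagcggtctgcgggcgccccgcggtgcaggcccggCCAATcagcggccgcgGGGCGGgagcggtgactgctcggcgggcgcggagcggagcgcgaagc
CCAAT began 185 and 63 bases before the start, and GGGCGG 47 bases before it. On either strand CCAAT occurred in 32.0% and GGGCGG in 42.5% of 34943 such windows of annotated genes. The window held 35 CG dinucleotides, against a median of 11 over those windows. Other members were also rich in CG: 48 in IGF1R, 33 in IGF2R, 32 in IGFBP3, 28 in INSR and 24 in IGFBP4. IGFBP5 held 8, and the windows of IGFBP2 held 7, 22 and 4. The IGFBPL1 window held no match to CANNTG (the E-box, found in 61.8% of windows) or TATAAA (also as TTTATA, 10.8%). Those of IGF1R, INSR and IGFBP5 held neither as well, nor did 1 of the 3 windows of IGFBP2. Of the 10 members, 8 matched an entry of the RefSeq promoter table, IGF2 and IGFBP7 being the others, and CCAAT occurred in the window of IGFBPL1 and in 1 of the 3 windows of IGFBP2. These are matches of letters, not measured binding.

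Several markers of intermediate progenitors and newborn neurons had lower values in the exposed libraries. Of the 11 listed genes of intermediate progenitors and newborn neurons, all tested, 10 had a log2 fold change below 0 and the groups did not overlap in 8, all lower. Without the block 0 passed in edgeR's test (9 at an unadjusted p-value under 0.05), and with it 7 passed, all lower. Their summed level was 467.3 to 541.6 TPM in vehicle and 349.0 to 406.1 TPM with Aβ42, and none was at 0 in all libraries. EOMES, the transcription factor that defines intermediate progenitors, was at 102.0, 124.0 and 99.4 CPM in the vehicle libraries and at 58.9, 75.7 and 49.1 CPM in the exposed libraries (-0.83 ± 0.17 in log2 units, adjusted p-value 0.0779 by edgeR, 2.44e-06 with the block). NEUROG2, which drives neurogenesis upstream of EOMES, had a log2 fold change of 0.04 ± 0.07. All 14 listed proliferation genes had log2 fold changes below 0 (median -0.45, summed level 672.1 to 772.9 TPM against 432.5 to 633.9 TPM). Their groups did not overlap in 9, and with the block 13 passed, all lower (0 without it by edgeR, 13 unadjusted). The 12 neuronal genes summed to 5390 to 5638 TPM in vehicle and 5038 to 5271 TPM with Aβ42. Of these, 1 was higher and 6 were lower without overlap of the groups. With the block 4 neuronal genes passed, all lower (0 without it by edgeR, 1 higher and 5 lower unadjusted). Over all genes 7.05% passed as lower with the block, and 13.4% were lower without overlap. The part of these cell types in the IGFBPL1 difference was not tested, and in bulk RNA fewer cells of a type and less RNA per cell cannot be told apart.

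Over the 6 libraries, the log2 CPM of IGFBPL1 ran most closely with HMGN2, a chromatin protein (Pearson r = 0.997), ADGRG6, an adhesion G-protein-coupled receptor (0.995), and RABIF (0.994), among 10281 genes with a mean of at least 10 CPM. HMGN2 was at 435.0, 436.0 and 434.0 CPM in vehicle and at 376.0, 403.0 and 347.0 CPM with Aβ42, the same order of libraries within the Aβ42 group. The 99th percentile of r over those genes was 0.970, and the 6 libraries share the group difference. For IGF2R, the member with the smallest p-value among those higher, the closest were HDDC2 (0.992), ZCCHC2 (0.980) and CLCN2 (0.977), with a 99th percentile of 0.862.

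IGFBP7 (chr4:57030773-57110385), a secreted protein of vessel walls and extracellular matrix, passed the test, as lower, only with the replicate block. It was at 15.4, 32.2 and 18.0 CPM in vehicle replicates 1 to 3 and at 13.0, 22.1 and 12.8 CPM in Aβ42 replicates 1 to 3. The libraries numbered 2 were the highest of each group, and the groups overlapped. Without a block the log2 fold change was -0.45 ± 0.38 (adjusted p-value 0.509 by edgeR). Within each number the Aβ42 library was the lower, by log2 ratios of -0.24, -0.54 and -0.49, and with the block the log2 fold change was -0.44 ± 0.09, a change of -26.1% (95% interval -35.3% to -15.6%), with an adjusted p-value of 0.00465. That call was lost when the libraries numbered 1 or 3 were left out of the blocked fit (0.0568 and 0.0639) and held without those numbered 2 (0.0376). The unblocked value rested on vehicle replicate 2: without it the log2 fold change was -0.06, and without Aβ42 replicate 2 it was -0.76. IGFBP7 was the 1 member whose estimated counts were not whole, and how they were made was not tested. The annotation places IGFBP7-AS1 and POLR2B on the opposite strand over it.

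**Figure D3:**
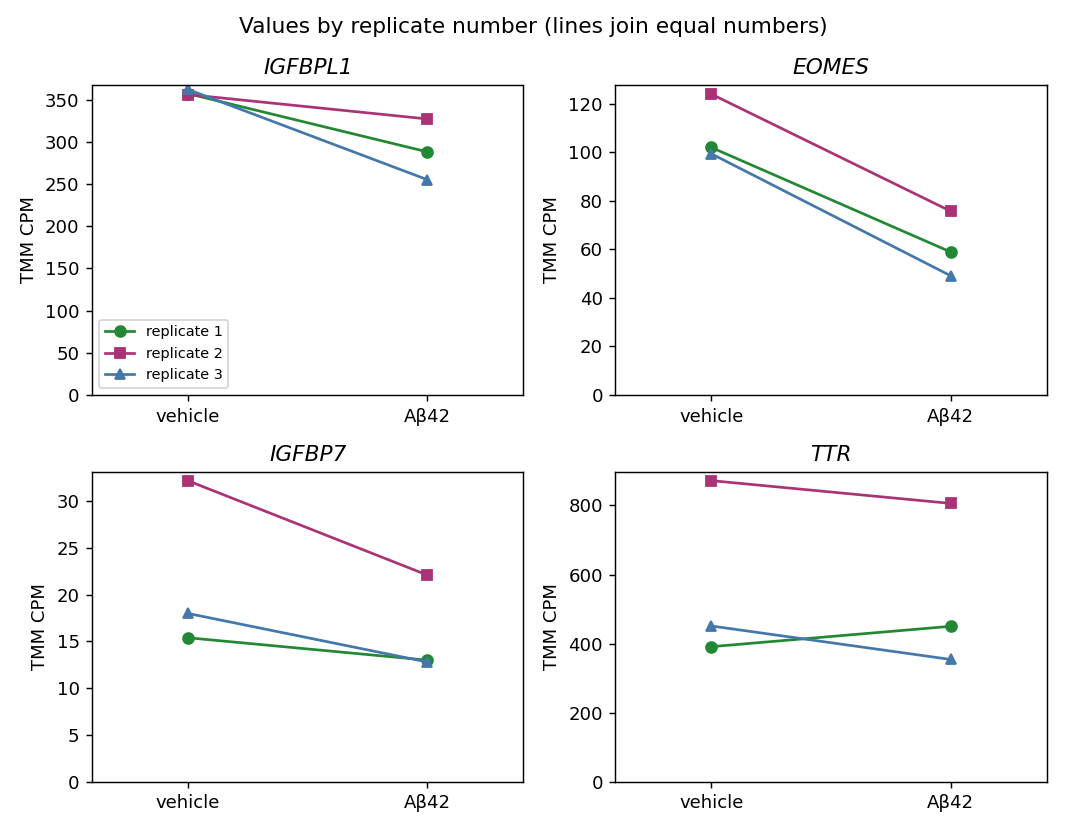
TMM-normalised CPM of IGFBPL1, EOMES, IGFBP7 and TTR in each library, with lines joining vehicle and Aβ42 libraries of the same replicate number. IGFBPL1 and EOMES are lower with Aβ42 at all 3 numbers, IGFBP7 is lower at all 3 but highest at number 2 in both groups, and TTR is highest at number 2 without a shared direction.

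The choroid plexus marker TTR was also highest at number 2. TTR, the transport protein that defines choroid plexus epithelium, was at 391.0, 872.0 and 451.0 CPM in vehicle and at 450.0, 806.0 and 354.0 CPM with Aβ42. The 14 listed choroid plexus genes, none at 0 in all libraries, summed to 3456, 7710 and 4065 TPM in vehicle replicates 1 to 3 and to 3729, 6789 and 2925 TPM in Aβ42 replicates 1 to 3. Most of each sum was TTR itself, at 3299, 7487 and 3925 TPM in vehicle and 3605, 6581 and 2805 TPM with Aβ42. The sum therefore says little of the other markers. The log2 fold change of TTR was -0.09 ± 0.49. Of 13 tested, 10 had a log2 fold change below 0, with a median of -0.48 over the list. With the block 4 passed, all lower, against 7.05% of all genes (0 without it, with 1 higher and 1 lower unadjusted). IGF1 too was highest at number 2 in both groups, at 6.08 CPM (vehicle) and 4.10 CPM (Aβ42), on 25 to 100 counts per library. How many of all genes were highest at number 2 in both groups was not counted. Over 12186 genes, deviations from group means correlated at 0.388 between the libraries numbered 2, so the pattern is not particular to these genes. The 10 endothelial markers, cells in which IGFBP7 is known to be abundant, summed to 15.77 to 19.55 TPM in vehicle and 11.43 to 16.77 TPM with Aβ42, with PECAM1 between 0 and 0.09 TPM. Mesenchyme and fibroblast markers summed to 52.52 to 70.13 TPM and 51.86 to 55.67 TPM. Only 4 of the 10 endothelial and 7 of the 12 mesenchyme and fibroblast markers had enough counts to test. With the block 1 mesenchyme and fibroblast marker passed, as lower, and no endothelial marker did. The part of these cells in the IGFBP7 values was not tested. Of 11 microglial markers, TREM2, TYROBP, C1QA, C1QB and C1QC were at 0 in all libraries and the list summed to at most 1.33 TPM.

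IGFBP2 and IGFBP5, neighbouring genes on chromosome 2 (chr2:216632828-216664436 and chr2:216672105-216695549), each had 1 vehicle library apart from the rest. IGFBP2 was at 143.0, 92.4 and 123.0 CPM in vehicle and at 129.0, 140.0 and 129.0 CPM with Aβ42, with vehicle replicate 2 the lowest. Its log2 fold change was 0.15 ± 0.15 (95% interval -0.22 to 0.52, adjusted p-value 0.573 by edgeR), and it was -0.0024 without vehicle replicate 2. The 12 radial glia markers, cells that express IGFBP2, summed to 8564 to 8966 TPM in vehicle and 8786 to 9112 TPM with Aβ42. Their log2 fold changes were above 0 in 7 and below it in 5, with a median of 0.03. With the block 3 passed, all lower, against 7.05% of all genes (0 without it by edgeR, 1 higher and 3 lower unadjusted). The 10 astrocyte markers summed to 263.4 to 330.1 TPM and to 195.0 to 264.8 TPM, with 8 of 10 log2 fold changes below 0, a median of -0.56, and 4 passing as lower with the block (0 without it by edgeR, 1 higher and 3 lower unadjusted). The part of these cells in the IGFBP2 values was not tested. IGFBP5, a binding protein that attaches to extracellular matrix, was at 162.0, 113.0 and 122.0 CPM in vehicle and at 128.0, 140.0 and 119.0 CPM with Aβ42, with vehicle replicate 1 the highest. Its log2 fold change was -0.04 ± 0.14 (-0.38 to 0.30, adjusted p-value 0.898) and 0.14 without vehicle replicate 1. Neither direction was stable to leaving out 1 library.

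IGFBP4 and IGFBP3 showed small differences within the spread. IGFBP4 (chr17:40443450-40457725), which blocks IGF action until it is cleaved by the protease PAPPA, was at 21.6, 23.7 and 24.1 CPM in vehicle and at 22.9, 24.4 and 25.9 CPM with Aβ42. The groups overlapped, and the log2 fold change was 0.08 ± 0.08 (95% interval -0.10 to 0.26, adjusted p-value 0.572 by edgeR). PAPPA had 3 to 7 counts in the vehicle libraries and 1 to 5 with Aβ42, too few to test. IGFBP3 (chr7:45912245-45921272), the main carrier of IGFs in blood and a known target of hypoxia and of p53, was at 7.87, 7.05 and 5.43 CPM in vehicle and at 8.29, 6.35 and 6.78 CPM with Aβ42. Its log2 fold change was 0.07 ± 0.17 (-0.29 to 0.44, adjusted p-value 0.816), and its sign turned without vehicle replicate 3 (-0.06) or Aβ42 replicate 1 (-0.05). All 14 listed hypoxia-induced genes had log2 fold changes above 0, with a median of 0.51, though their sums overlapped between the groups. They summed to 671.2 to 1138 TPM in vehicle and 1119 to 1366 TPM with Aβ42. Of 14 p53 target genes, 9 were above 0 with a median of 0.15. With the block 4 hypoxia genes passed, all higher, and 6 p53 targets, 5 higher and 1 lower. Over all genes 7.12% passed as higher and 7.05% as lower with the block. The groups did not overlap in 5 hypoxia genes, all higher, nor in p53 targets, 4 higher and 1 lower. Over all genes those shares were 13.6% higher and 13.4% lower. Without the block 0 of either list passed by edgeR (2 higher, and 5 higher and 1 lower, unadjusted).

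The share of IGFBPL1 among binding-protein transcripts was lower with Aβ42, with no test made of the shares. The 6 binding-protein genes together gave 740.0 ± 54.5 TPM in vehicle and 688.0 ± 61.4 TPM with Aβ42 (SD, n = 3 each). IGFBPL1 took 33.2%, 39.3% and 36.3% of that sum in vehicle replicates 1 to 3 and 31.3%, 31.6% and 28.4% with Aβ42. IGFBP2 took 49.8%, 37.7% and 46.7% in the vehicle libraries and 51.2%, 49.6% and 54.1% in the exposed ones. For IGFBPL1 the shares did not overlap between groups, and for IGFBP2 they overlapped through vehicle replicate 1. In CPM the groups did not overlap in 27% of all genes tested. The shares of a library add to a fixed total, so a lower IGFBPL1 share raises the others, and they are no evidence apart from the levels. IGFBP7 ranged from 4.18% to 10.5%, and IGFBP3 from 0.774% to 1.28%.

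**Figure D4:**
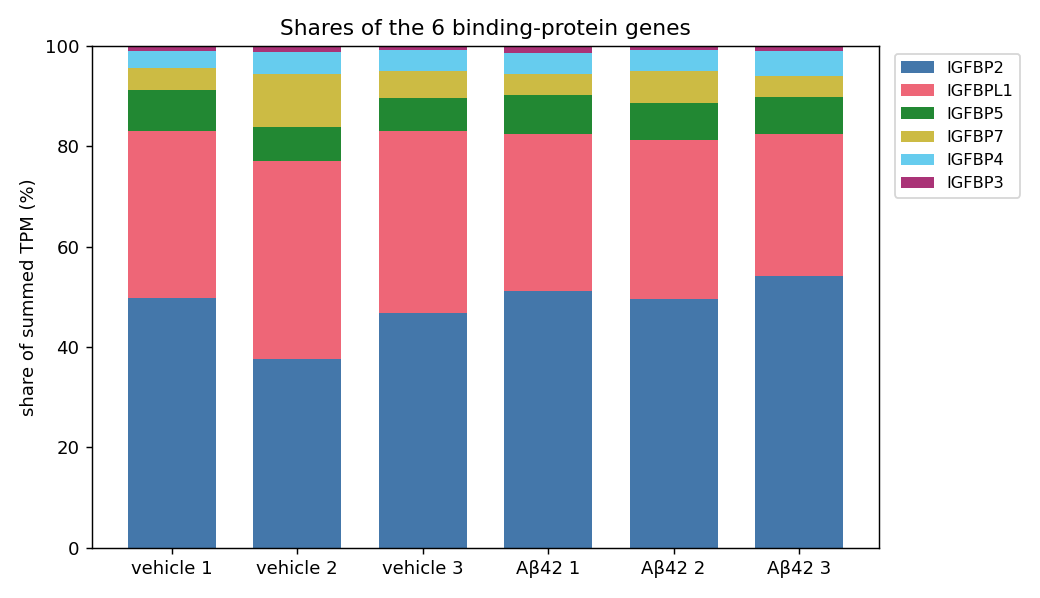
Share of the summed TPM of the 6 binding-protein genes taken by each of them, with 1 stacked bar per library adding to 100%. IGFBP2 and IGFBPL1 fill most of every bar, and the IGFBPL1 share is 33.2% to 39.3% in vehicle and 28.4% to 31.6% with Aβ42.

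The estimated transcript length that the authors' TPM implies (count divided by TPM, scaled to a gene's mean over the libraries) moved by less than 1% between libraries in 6 of the 10 genes, IGFBPL1 among them (0.0869%). IGF2, at its few counts, ranged over 6.51%, and IGF1R over 6.12%, with Aβ42 replicate 1 lowest at 96.23% of its mean. IGFBP2 ranged over 3.70% and IGFBP7 over 2.47%, against a median of 1.53% over 10475 well-counted genes. For IGF1R this means that TPM and CPM differ slightly in how they place Aβ42 replicate 1.

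Downstream of the receptors and elsewhere in the IGF system, 93 further genes in 5 lists were tested. No gene of these lists passed without the block by edgeR (31 at an unadjusted p-value under 0.05), DESeq2 called 9, and 19 passed with the block, 12 higher and 7 lower. Over all genes these shares were 23.9% unadjusted, 6.3% by DESeq2 and 14.2% with the block. Among other ligands, binding proteins and their regulators, 1 of 10 tested genes passed with the block: PAPPA2, a pappalysin protease that cleaves IGFBP3 and IGFBP5. Its level was 13.67 ± 2.64 CPM in the vehicle group and 20.55 ± 1.0 CPM in the exposed group, without overlap, a log2 fold change of 0.59 ± 0.13 (adjusted p-value 0.0697 by edgeR, 0.00265 with the block). IGF1 was the gene with the smallest p-value among those lower in that list, at a log2 fold change of -0.69 ± 0.53 (adjusted p-value 0.458). The median log2 fold change of the list was -0.01.

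Of 23 receptor adaptors and brakes, 4 passed as higher and 1 as lower with the block, and their median was 0.01. Over all genes 7.12% passed as higher and 7.05% as lower with the block. GAB2, a docking protein, had a log2 fold change of 0.18 ± 0.05 (adjusted p-value 0.0891 by edgeR, 0.0244 with the block). SOS2, which activates RAS, had one of -0.24 ± 0.08 (0.109, 0.0191 with the block). Of 31 PI3K, AKT and mTOR genes 3 passed with the block, all lower, against 7.05% of all genes: PIK3R1, PIK3R3 and EIF4EBP2. PIK3R3, a regulatory subunit of PI3K that binds IGF1R, went from 205.2 ± 6.16 to 167.5 ± 20.9 CPM (-0.29 ± 0.08, adjusted p-value 0.0856 by edgeR, 0.00261 with the block). AKT2, a kinase of insulin signalling, had a log2 fold change of 0.12 ± 0.05 (0.165, 0.148 with the block).

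Of 18 FOXO factors and FOXO-induced genes, which insulin and IGF signalling hold down, 4 passed as higher and 2 as lower with the block (6 and 2 unadjusted without it). Over all genes 7.12% passed as higher and 7.05% as lower with the block, and 23.9% unadjusted without it. The median of the list was 0.14, with 12 of 18 above 0, and IGF signalling itself was not tested. KLF6, a zinc-finger factor, went from 83.25 ± 4.46 to 102.0 ± 9.86 CPM (0.29 ± 0.07, adjusted p-value 0.0734 by edgeR, 0.00243 with the block). BCL6, a repressor that promotes neurogenesis, went from 78.05 ± 3.80 to 57.41 ± 8.03 CPM (-0.44 ± 0.09, 0.0697, 0.000397 with the block). The 6 genes called with the block were FOXO4, TXNIP, BCL6, FBXO32, GADD45A and KLF6, several of which other stress pathways also induce. Among 11 imprinted genes and IGF2 regulators 3 passed as higher and 1 as lower with the block, to be read beside the same shares of all genes. CDKN1C, an imprinted inhibitor of the cell cycle, averaged 2.139 ± 0.594 CPM in the vehicle group and 3.553 ± 0.902 CPM in the exposed group (0.73 ± 0.26, 0.134 by edgeR, 0.0212 with the block). CTCF, which insulates the IGF2 locus, had a log2 fold change of -0.16 ± 0.05 (0.121, 0.0574 with the block). The lowest fold change among all genes tested was also in this list: NNAT, an imprinted gene of developing neurons, at -3.76 ± 2.02 (adjusted p-value 0.338 by edgeR). It rested on vehicle replicate 2, with 413 counts against 7 to 14 in each other library.

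The libraries held 16465390 to 16742958 counts each. The 6 dorsal forebrain markers summed to 890.8 to 926.0 TPM in vehicle and 809.6 to 900.8 TPM with Aβ42, with no marker at 0 in all libraries. Over all genes 0 passed without the block by edgeR (3302 unadjusted), 804 by DESeq2 and 1962 with the block.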

How the data were processed

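Per the file headers the authors deposited counts and TPM for every gene in each library. Of the deposited counts, 86.9% to 87.5% per library were whole, and they were rounded and handled as estimated counts, made by the authors. The submitters' processing notes name FastQC, STAR 2.7.11b, featureCounts 2.0.6 and GRCh38. Counts that are not whole, and lengths implied by count and TPM that vary between libraries, are not the usual output of that counter, so which program made the values is not known here. The annotation, strand setting and how TPM was made are not given in the sources used here. Per the labels' protocols, libraries were poly(A)-enriched, stranded and amplified by PCR, and no molecular identifiers are mentioned, so intervals do not cover amplification.

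Genes passing filterByExpr were scaled by TMM and tested with edgeR 4.0.16 (quasi-likelihood, robust, two-sided, R 4.3.3), with Benjamini-Hochberg adjustment over 13842 genes. Each SE comes from the fold change and its F statistic. Alternatives used DESeq2 1.42.0 and limma 3.58.1. Coordinates are from RefSeq (GRCh38.p14), matched by Entrez gene ID.

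Deviations from group means correlated at 0.181, 0.388 and 0.129 between same-numbered libraries over 12186 genes, all above 0.1, so the numbers were used as a block in an alternative fit. This rests on the data alone: unlike-numbered libraries correlated at -0.302 to 0.177, and 2 of those 6 pairs (0.177 and 0.154) exceeded the same-numbered 0.129. Only number 2 stood apart, and these values do not tell the numbers 1 and 3 from each other. The labels do not say that equal numbers share a culture. The block was chosen from the same data that the blocked fit tests. All pairs of libraries differed by more than sampling noise (chi-square per gene at least 3.16).

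All members were named whatever their result, plus, from each pathway list, the genes of lowest p-value among those higher and those lower, and the 3 genes closest to the lead member in each direction. EOMES, NEUROG2, TTR, PECAM1, NNAT, PAPPA, the genes called in the 2 lists given by name and IGF1's levels were chosen after values were seen. Members and lists were chosen with earlier results of these data known. No p-value was adjusted over the members alone.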

Additional observations from a re-analysis of the deposited data

How the results depend on the processing

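Of 170 pairs of a member and an alternative, 158 kept direction and side of the threshold, 5 passed the threshold and 7 changed sign, none of the latter near it. IGF2 had no adjusted p-value from DESeq2 and is counted there by direction only. The 5 were IGFBP7 with the replicate block (-0.44) and IGFBPL1 with the block (-0.31), by DESeq2 (-0.31), with quality weights (-0.38) and without Aβ42 replicate 2 (-0.40). IGFBPL1 lay between -0.40 and -0.22 in all 17 alternatives, with adjusted p-values from 0.00049 to 0.296. The signs that turned were INSR on TPM with a pseudocount of 1 or of 0.1 (-0.01 with both, where the median of all genes was -0.04), IGFBP2 without vehicle replicate 2 (-0.0024), IGFBP3 without vehicle replicate 3 (-0.06) or Aβ42 replicate 1 (-0.05), and IGFBP5 without vehicle replicate 1 (0.14) or Aβ42 replicate 3 (0.02). Over all libraries left out in turn, these ran from -0.0024 to 0.30 for IGFBP2, from -0.06 to 0.19 for IGFBP3 and from -0.14 to 0.14 for IGFBP5.

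The count of genes called, 0 by edgeR, was 360 with no filter on low counts, 804 by DESeq2, 2457 with quality weights, 1962 with the replicate block, and 0 to 3228 when 1 library was left out. The count of members called was 1 by DESeq2, 1 with quality weights, 2 with the block and 0 to 1 when 1 library was left out. Listed pathway genes called were 3, 9, 22 and 19 under the same alternatives as the count of genes, and 0 to 29 when 1 library was left out. Members whose groups did not overlap, 1 in the report, numbered 2 with upper-quartile scaling and 1 to 4 when 1 library was left out. The cause was not tested, except that fewer libraries make overlap less likely by construction. By CPM in place of TPM, IGFBP2 ranked 5 among the 10 levels and not 1, because CPM does not divide by length.

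Leaving 1 number out of the blocked fit, added after seeing the data, gave 114, 2096 and 496 genes without numbers 1, 2 and 3, 0 to 2 members and 1 to 20 pathway genes. In these fits IGFBP2 was -0.04 without number 2, IGFBP3 -0.03 without number 3 and IGFBP5 0.14 without number 1. Among the members, the block changed the call of IGFBP7 and IGFBPL1 and of no other. IGF2, at 4 to 19 counts, is limited by depth.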
